A study of Bos taurus with 11 samples.

Results

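The matrix metalloproteinases (MMPs), the ADAMTS proteases, their tissue inhibitors (TIMPs) and 4 genes of the plasminogen activator system were followed in the endometrium of fertile and subfertile cows. Members were all non-control probes whose gene name in the array files was an MMP, an ADAMTS or a TIMP followed by its number, or was PLAU, PLAUR, PLAT or SERPINE2. That gave 94 probes of 42 genes among 43653 non-control probes: 42 probes of 17 MMP genes, 34 probes of 17 ADAMTS genes, 4 probes of the plasminogen activators PLAU and PLAT, 2 probes of the receptor PLAUR, 11 probes of 4 TIMP genes and 1 probe of the inhibitor SERPINE2. Symbols reached through the accession of a probe were the same for 52 of the 54 member probes that could be looked up that way, and the other 2 were the MMP23B probes, now listed as MMP23. The rule reads gene names only.

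The biopsies were of endometrial tissue from Bos taurus cows on day 7 of the oestrous cycle, with 1 biopsy and 1 Agilent one-colour oligonucleotide array for each cow. The 6 fertile cows had become pregnant within 3 embryo transfers or inseminations before the biopsy and again at the transfer that came next. The 5 subfertile cows had failed to conceive at 3 services in a row, with no fault found in the genital tract and with cycles that looked normal. The labels name no treatment, and the breed and age of the cows are not given in the sources used here.

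MMPs and ADAMTS enzymes are zinc proteases that cut proteins outside the cell, among them collagens, gelatins and proteoglycans. Most are made as inactive precursors, and plasmin, which PLAU (urokinase) and PLAT (tissue plasminogen activator) release from plasminogen, can take part in activating several MMPs. TIMPs block the active site of MMPs and of some ADAMTS enzymes, while SERPINE2 (protease nexin 1) blocks thrombin and the plasminogen activators. In the uterus of ruminants the matrix is remodelled through the cycle and at the start of pregnancy.

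Each value below is the log2 processed signal of a probe minus the 75th percentile of its array, so that 0 is that percentile and a difference of 1 is a 2-fold change. A probe was called measured on an array where the scanner software marked it well above background, and it was tested where it was measured on at least 5 of the 11 arrays. Differences are subfertile minus fertile, with the standard error and the Benjamini-Hochberg adjusted p of limma over all 31877 tested probes, and a probe passed at an adjusted p below 0.05. Where a gene had several probes, the brightest tested one stands for the gene. Signals of different probes are not on a common scale, so levels were compared between cows and not between genes.

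The 60-base probes themselves decide what each value can tell, and a few are shown here. The probe of ADAMTS6 and the dimmer probe of ADAMTS10 read the same stretch of a pair of related proteases, and their group differences had opposite signs. Of 58 aligned bases 45 were identical, and capitals mark the 13 that differ and the ends without a partner:
ADAMTS10: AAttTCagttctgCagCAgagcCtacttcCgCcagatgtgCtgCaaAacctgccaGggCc
ADAMTS6: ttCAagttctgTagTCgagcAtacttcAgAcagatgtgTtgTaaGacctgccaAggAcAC
The ADAMTS10 probe lies at chr7:15625565-15625624 on the minus strand and the ADAMTS6 probe at chr20:15176897-15176956 on the plus strand of the assembly Btau_3.1. Each is the closest probe of the other on the whole array, and the next closest probe of another gene shared 33 bases with either.

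The MMP1 probe below contains the codons of the zinc-binding site, in capitals, that gives the family its catalytic metal. It spans an intron at chr15:4762221-4763283 and was measured on no array:
MMP1: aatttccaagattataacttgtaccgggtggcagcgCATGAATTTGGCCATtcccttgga
The others are a probe of MMP2, at chr18:23269262-23269321, 1 of 5 probes that differed the same way, a probe of TIMP2, which spans an intron at chr19:55010516-55047794, and the probe of SERPINE2, whose value in 1 fertile cow stood apart, spanning an intron at chr2:116628812-116630027 on the minus strand:
MMP2: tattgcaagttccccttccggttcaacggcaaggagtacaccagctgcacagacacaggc
TIMP2: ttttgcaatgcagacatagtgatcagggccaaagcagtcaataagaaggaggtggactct
SERPINE2: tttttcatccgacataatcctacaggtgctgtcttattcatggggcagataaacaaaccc
In all, 22 of the 94 member probes spanned an intron in the coordinates of the files.

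Facts of the arrays bear on every comparison. The median processed signal was 161 to 452 on the fertile arrays and 53.8 to 92.7 on the subfertile arrays, and the share of probes measured was 72.0% to 77.4% and 64.4% to 74.1%. No spot was saturated. The lowest value that was well above background was -7.05 to -6.58 on fertile and -6.24 to -5.40 on subfertile arrays, so a dim probe had to be brighter to count as measured in subfertile cows. The 19 member probes measured on no array all had a higher mean in subfertile cows, by a median of 0.88, and for 12 of them the groups did not overlap. These counts are given without the same counts over all such probes of the array, so they show nothing particular to the members. The part of this shift in the differences of dim probes was not tested. The subfertile arrays were all scanned on 1 day, and among the 10 arrays with a header no slide or scan day held both groups, so group, slide and day cannot be told apart. The slide and day of fertile cow 6 are unknown. Its file had no header and held rounded signals, with its gene names out of register, and its probes were joined by probe name. The samples are whole tissue, so fewer cells of a type and less RNA in each cell cannot be told apart.

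Detection differed among the MMPs, and most of those in 1 gene cluster were not tested. Of the 94 member probes, 62 from 34 genes were tested, 50 were measured on all 11 arrays and 19 on none. MMP12 (macrophage elastase), MMP20 (enamelysin of tooth enamel), ADAMTS3 (a procollagen N-proteinase) and ADAMTS20 were measured on no array. MMP3 (stromelysin 1), MMP13 (collagenase 3), MMP27 and ADAMTS8 were measured on at most 3 arrays with any probe and were not tested. MMP1, MMP3, MMP7, MMP12, MMP13, MMP20 and MMP27 lie within chr15:4620591-5181827, a stretch of 561 kb that holds the collagenase and stromelysin cluster. Of its 16 probes, 4 were tested, from MMP1 and MMP7, and 7 were measured on no array. The other 10 MMP genes had 26 probes, of which 20 were tested, and each of these 10 genes had at least 1 tested probe. Over the whole array 31877 of 43653 probes were tested. ADAMTS8 was measured in 3 of 6 fertile and 0 of 5 subfertile cows, and its measured fertile values, -6.18 to -5.75, lay within the range where subfertile arrays reached their limit, so these counts show no difference. MMP13 was measured in 1 cow of each group.

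**Figure D1:**
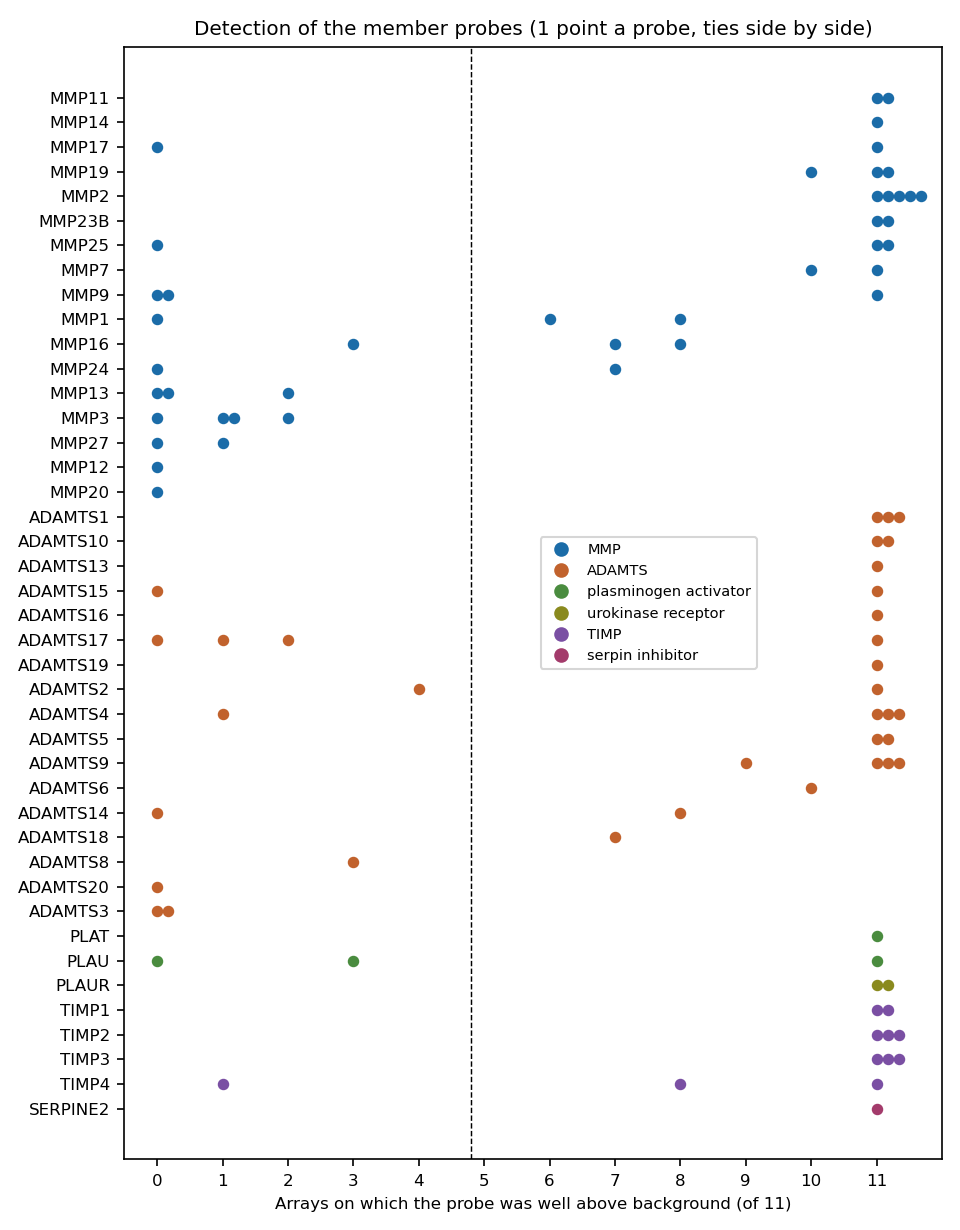
Number of arrays, of 11, on which each member probe was well above background, with 1 point a probe and ties drawn side by side, by gene and coloured by class. Probes right of the dashed line were tested, and the genes of the chromosome 15 cluster other than MMP1 and MMP7 all lie left of it.

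On their brightest probe, 9 of 34 tested genes passed, 26.5%, where 22.1% of all 18445 named genes passed. Of these 9, 6 were higher in subfertile cows and 3 lower, beside 14.2% higher and 7.89% lower over all names. All 9 were proteases, but proteases were 28 of the 34 tested genes. Of these 28, 32.1% passed against 22.1% of all names, while 22.4% of protease probes passed against 22.2% of all tested probes. At the level of probes, 12 of 62 passed (19.4%), 9 higher and 3 lower, beside 22.2% of all tested probes, 14.8% higher and 7.38% lower. The shares of members were near those of the array. The median difference was -0.01 over the 34 genes and -0.10 over the 62 probes, against 0.07 over all tested probes. Groups that did not overlap were seen for 5 genes, 14.7%, against 13.6% of all names, and for 6 probes, 9.68%, against 13.5% of all probes.

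Slide and day of scanning moved with the group, so their part could not be tested. Entered as random effects they widen the standard errors, but they cannot take a slide or day effect out of a group difference. A call kept in this way is therefore not shown to be free of such an effect. With slide entered in that way, MMP2, MMP25, ADAMTS10 and ADAMTS15 passed (limma, adjusted p 0.0159, 0.0125, 0.0443 and 0.0058), and the other 5 of the 9 genes did not (0.0538 to 0.161). With day entered instead, ADAMTS15 kept its call (limma, adjusted p = 0.0342) and the other 8 lost theirs (0.0590 to 0.270). The 9 differences moved by at most 0.07 with slide and 0.06 with day, while their standard errors grew 1.12 to 1.40 times and 1.35 to 1.59 times.

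**Figure D2:**
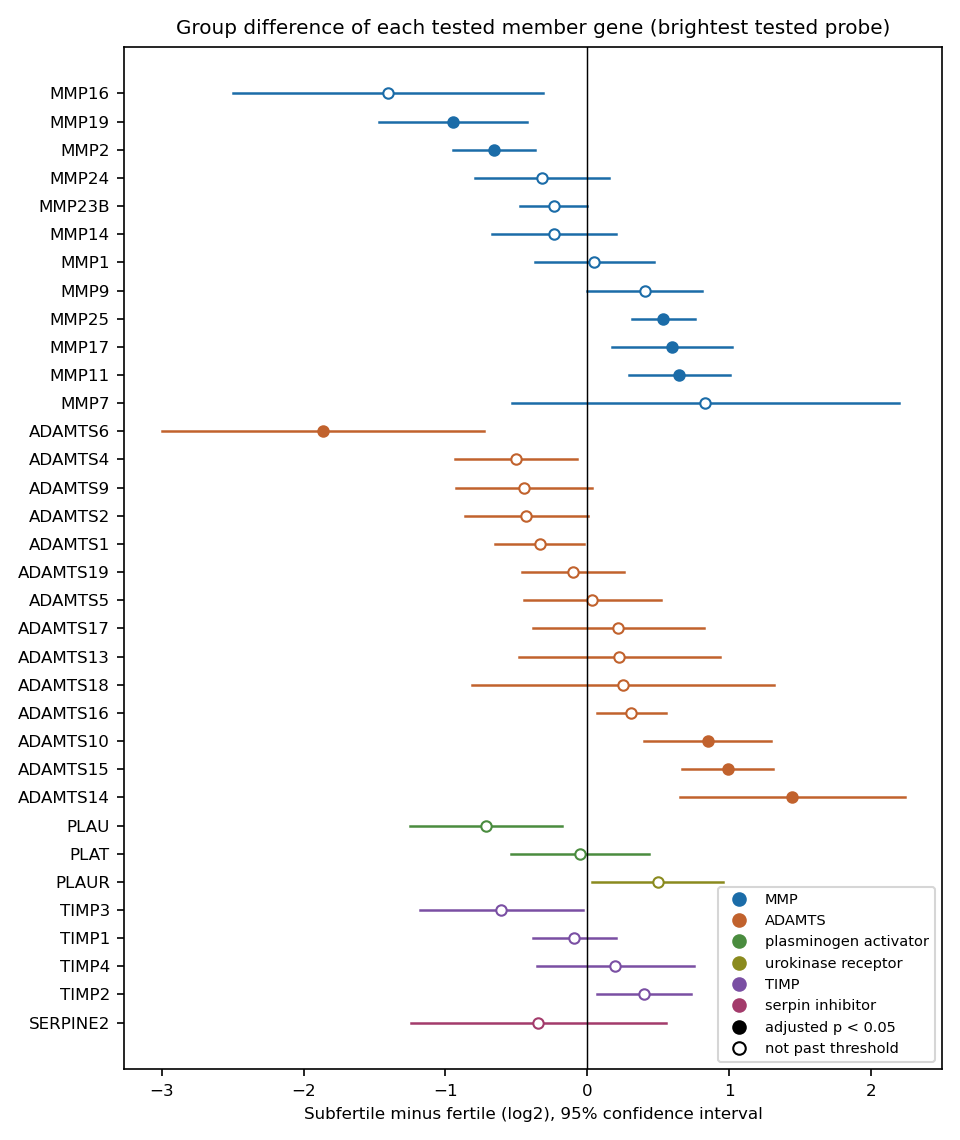
Difference between subfertile and fertile cows (log2, subfertile minus fertile) with its 95% confidence interval for the brightest tested probe of each of the 34 tested genes, by class. Filled points passed an adjusted p of 0.05: 6 proteases lie right of 0 and 3 left, and none of the plasminogen activators, PLAUR, the TIMPs or SERPINE2 is filled.

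Among the MMPs, MMP2 and MMP19 were lower and MMP11, MMP17 and MMP25 were higher in subfertile cows. These were 5 of the 12 genes tested (41.7%, against 22.1% of all names). Of 24 probes 6 passed (25.0%, against 22.2% of all probes), and neither contrast was tested. MMP2, the gelatinase A that cuts denatured collagen and basement membrane collagen, fell by 0.66 ± 0.13 (SE), a 1.58-fold difference, with a limma adjusted p of 0.0060. Fertile cows ranged from 3.98 through a median of 4.10 to 4.37, and subfertile cows 1 to 5 were at 3.098, 3.65, 3.73, 3.42 and 3.57. Every subfertile cow was below every fertile cow. All 5 MMP2 probes had negative differences, from -0.32 to -0.66, of which only the brightest passed.

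MMP19, a metalloproteinase that cleaves basement membrane components, fell by 0.95 ± 0.24, a 1.93-fold difference (limma, adjusted p = 0.0167). Fertile cows ranged from 0.03 through 0.90 to 1.27, and the subfertile cows were at -0.57, -0.14, 0.28, 0.29 and -0.58. The overlap came from fertile cow 6, whose value of 0.03 lay below those of subfertile cows 3 and 4, while the other 5 fertile cows were above all subfertile cows. Its other tested probes differed by -0.65 and -0.38 and did not pass.

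MMP25, a membrane-anchored metalloproteinase known from leukocytes, was higher by 0.54 ± 0.10, or 1.45-fold (limma, adjusted p = 0.0050). Fertile values ran from -0.29 through -0.21 to 0.12, and the subfertile cows stood at 0.48, 0.49, 0.30, 0.36 and 0.39. Those 5 values lay above all fertile ones and within a narrower range. The other tested MMP25 probe differed by -0.07 ± 0.16 (adjusted p = 0.784), so the gene rests on 1 of its 2 tested probes.

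MMP11 (stromelysin 3), which stromal cells make and which furin activates inside the cell, was higher by 0.65 ± 0.16, or 1.57-fold (limma, adjusted p = 0.0167). Fertile values went from -0.20 through 0.36 to 0.69, and subfertile values were 0.997, 0.78, 1.06, 1.33 and 0.67. Subfertile cow 5 fell just below fertile cow 3, and the other 4 subfertile cows were above every fertile cow. The dimmer MMP11 probe differed by 0.50 ± 0.23 (adjusted p = 0.143).

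MMP17 (membrane type 4 MMP) was higher by 0.60 ± 0.19, or 1.51-fold, close to the threshold (limma, adjusted p = 0.0463). Fertile values were -4.69 at the lowest, -4.31 at the median and -3.96 at the highest, and subfertile cows had -3.81, -3.23, -3.38, -4.04 and -4.20. Subfertile cows 4 and 5 lay inside the fertile range. The call was lost when any of 8 cows was left out (adjusted p up to 0.112), with quantile normalization (0.0858) and with median centring (0.0745).

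MMP14 and MMP9 did not pass. MMP14, the membrane protease that activates the MMP2 precursor, ranged from -3.14 through -2.54 to -1.99 in fertile cows and was at -2.89, -2.93, -2.34, -2.84 and -3.04 in subfertile cows. All subfertile cows lay within the fertile range, with a difference of -0.23 ± 0.20 and a limma adjusted p of 0.425 (95% interval -0.67 to 0.20), and with normexp correction the sign turned (0.19, adjusted p = 0.430). MMP9, the gelatinase B of neutrophils and macrophages, ranged from -5.02 through -4.53 to -3.90 in fertile cows and was at -3.99, -3.90, -4.12, -4.25 and -4.18 in subfertile cows. Its difference was 0.40 ± 0.19 (limma, adjusted p = 0.139). It passed without fertile cow 1 (0.52, adjusted p = 0.0484) and with normexp background correction (0.995, adjusted p = 6.6e-05). Under normexp the median difference of all probes was itself 0.33, in place of 0.07. The 2 other MMP9 probes were measured on no array.

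The remaining tested MMPs differed by -1.41 to 0.83. MMP16 (membrane type 3 MMP) had the lowest of these, -1.41 ± 0.50 (limma, adjusted p = 0.0643), and was measured in 6 of 6 fertile and 2 of 5 subfertile cows. Its second tested probe, at -1.44, shares 54 bases with it and is no separate evidence. MMP7 (matrilysin, an epithelial MMP) had the highest, 0.83 ± 0.62 (limma, adjusted p = 0.363), and spanned 3.98 over the 11 cows. Fertile cow 4 was at -2.08, above all other cows. MMP1, the interstitial collagenase, differed by 0.05 ± 0.19 and MMP24 by -0.32 ± 0.21, and both were measured in 6 of 6 fertile cows but in 2 and 1 of 5 subfertile cows. MMP23B had probes of opposite sign: the brightest differed by -0.24 ± 0.11 (limma, adjusted p = 0.129), and the dimmer one was higher by 0.48 ± 0.14 (adjusted p = 0.0337).

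**Figure D3:**
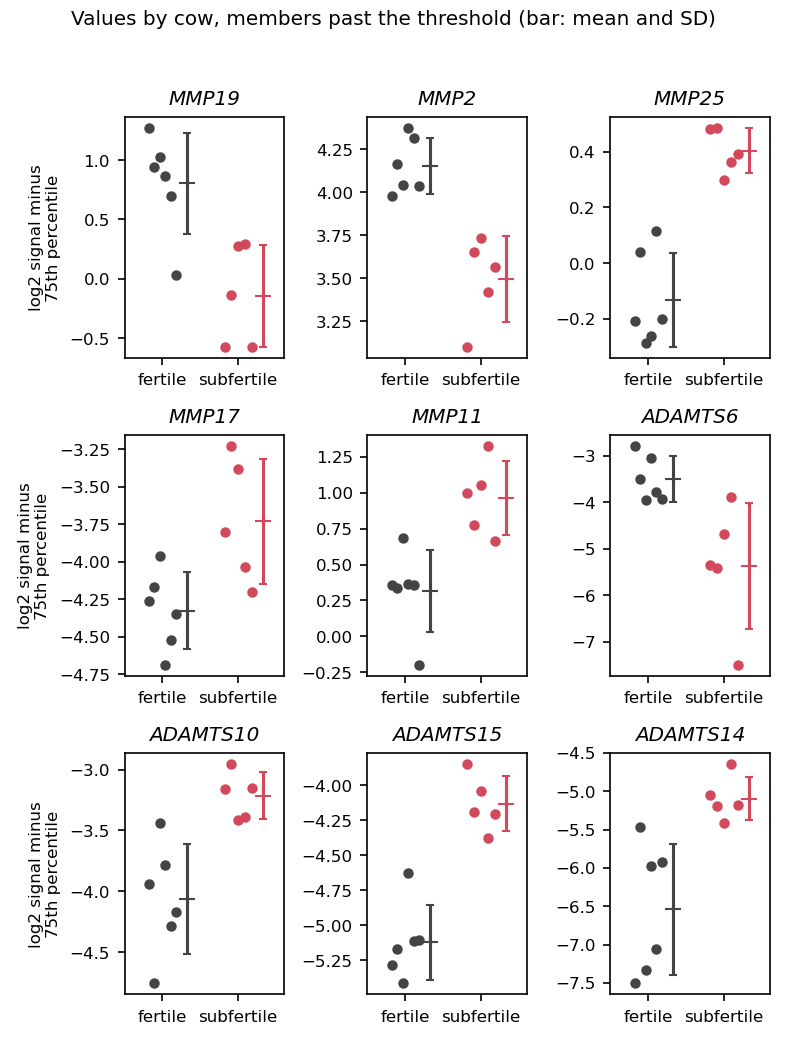
Values of each cow (log2 signal minus the 75th percentile of the array) for the 9 genes whose brightest probe passed the test, with 1 point a cow and bars at the mean with the SD of 6 fertile and 5 subfertile cows. The groups do not overlap for MMP2, MMP25, ADAMTS10, ADAMTS14 and ADAMTS15, and they overlap for MMP11, MMP17, MMP19 and ADAMTS6.

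Among the ADAMTS genes, ADAMTS10, ADAMTS14 and ADAMTS15 were higher and ADAMTS6 was lower in subfertile cows. These were 4 of the 14 genes tested (28.6%, against 22.1% of all names). Of 23 probes 5 passed (21.7%, against 22.2% of all probes). ADAMTS15, a protease that cleaves aggrecan and versican, was higher by 0.99 ± 0.15, or 1.98-fold, with a limma adjusted p of 0.0015. Fertile cows ranged from -5.42 through -5.14 to -4.63, and the subfertile cows were at -3.85, -4.19, -4.04, -4.38 and -4.20. Every subfertile cow was above every fertile cow, and the probe was measured on all 11 arrays. It was dim, with a mean of -4.67, in the dimmest of 4 level bins of the tested probes. In that bin, which also holds the MMP17 probe, 14.3% of probes passed as higher and 5.17% as lower. The ADAMTS15 difference is near the median shift of 0.88 in the member probes measured on no array. The part of that shift in the differences of ADAMTS15, ADAMTS10 and MMP17 was not tested. The other ADAMTS15 probe was measured on no array. 

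ADAMTS10, which binds fibrillin microfibrils, was higher by 0.85 ± 0.20, or 1.80-fold (limma, adjusted p = 0.0141). Fertile values ran from -4.75 through -4.05 to -3.44, and subfertile values were -3.16, -2.95, -3.42, -3.39 and -3.15. The groups stood apart by a narrow margin, since subfertile cow 3 was just above fertile cow 3. The 2 fertile cows of slide 1 had a mean of -3.69 and the 2 of slide 2 a mean of -4.52, a spread between slides of about the size of the group difference. The dimmer probe, whose sequence is printed above, was higher by 0.74 ± 0.19 (limma, adjusted p = 0.0162).

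ADAMTS14, a procollagen N-proteinase like ADAMTS2 and ADAMTS3, differed by 1.45 ± 0.36 (limma, adjusted p = 0.0166), a value that rests in part on signals at background. Fertile cows ranged from -7.51 through -6.51 to -5.46, and the subfertile cows were at -5.05, -5.19, -5.42, -4.64 and -5.17. The probe was measured in 3 of 6 fertile and 5 of 5 subfertile cows, so the size of the difference is not settled. Fertile cows 1, 3 and 5, which were not well above background, were the lowest, between -7.51 and -7.05, and fertile cow 2 was just below the lowest subfertile cow. The 2 fertile cows of slide 1 averaged -7.42 and those of slide 2 averaged -6.26.

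ADAMTS6, the closest relative of ADAMTS10, fell by 1.86 ± 0.52, a 3.64-fold difference (limma, adjusted p = 0.0259). Fertile cows ranged from -3.95 through -3.64 to -2.78, and the subfertile cows were at -5.35, -5.42, -4.67, -3.88 and -7.50. Subfertile cow 4 lay within the fertile range, and subfertile cow 5, the lowest, was not well above background. The SD was 0.49 in fertile and 1.35 in subfertile cows. The call was lost without fertile cow 1, fertile cow 4 or subfertile cow 2 (adjusted p 0.0553, 0.0507 and 0.0562), and with normexp correction the difference was 0.03 (adjusted p = 0.893), so that its direction depends on the background correction.

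The other 10 tested ADAMTS genes differed by -0.50 to 0.31 and none passed. ADAMTS1, a versican-cleaving protease induced by progesterone in the ovary, ranged from 3.98 through 4.13 to 4.52 in fertile cows and was at 3.75, 3.64, 4.25, 3.81 and 3.86 in subfertile cows. The other subfertile cows were below all fertile cows, and subfertile cow 3 was inside their range. The difference was -0.34 ± 0.14 (limma, adjusted p = 0.112), and it passed without subfertile cow 3 (-0.43, adjusted p = 0.0482), with normexp correction (0.0237) and with quantile normalization (0.0386). The aggrecan-cleaving ADAMTS4 differed by -0.50 ± 0.20 (limma, adjusted p = 0.0857), ADAMTS9 by -0.44 ± 0.22 and ADAMTS5 by 0.03 ± 0.22, while the dimmer ADAMTS5 probe differed by -0.67 ± 0.26 (adjusted p = 0.0881). The procollagen N-proteinase ADAMTS2 differed by -0.43 ± 0.20 (limma, adjusted p = 0.140) where ADAMTS14, of the same function, was higher, and the difference between the 2 genes was not tested. ADAMTS13, which cuts von Willebrand factor, differed by 0.23 ± 0.32, ADAMTS16 by 0.31 ± 0.11 (limma, adjusted p = 0.0657), ADAMTS17 by 0.22 ± 0.28, ADAMTS18 by 0.25 ± 0.49 and ADAMTS19 by -0.10 ± 0.16.

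In the plasminogen activator system none of the 4 genes passed. PLAU, the urokinase that works at the cell surface, ranged from -0.04 through 0.63 to 1.22 in fertile cows, and subfertile cows were at -0.65, -0.34, -0.12, 0.58 and -0.16. Of the 5 subfertile cows 4 were below every fertile cow, and subfertile cow 4 was inside the fertile range. The difference was -0.71 ± 0.25, or 1.64-fold (limma, adjusted p = 0.0573), just short of the threshold. It passed without fertile cow 6 (-0.84, adjusted p = 0.0281), without subfertile cow 4 (-0.89, adjusted p = 0.0196), with normexp correction (0.0224), with median centring (0.0340) and over probes measured on all arrays (0.0484). With slide as a random block the adjusted p was 0.162. The other PLAU probes were measured in 3 and 0 of 6 fertile cows and in no subfertile cow.

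PLAUR, the receptor that holds urokinase at the cell surface, had the opposite sign. Fertile cows ranged from -3.17 through -2.87 to -2.24 and subfertile cows were at -2.39, -2.27, -1.79, -2.87 and -2.20. Subfertile cows 3 and 5 were above every fertile cow, and subfertile cow 4 was near the fertile median. The difference was 0.50 ± 0.21 (limma, adjusted p = 0.111), with 0.37 on the dimmer probe. It passed without subfertile cow 4 (0.64, adjusted p = 0.0443) and with normexp correction (0.0023), under which the median difference of all probes was 0.33. Whether PLAU and PLAUR differed from each other was not tested.

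PLAT, the tissue-type activator also made by endothelium, ranged from 5.21 through 5.50 to 5.76 in fertile cows and was at 4.47, 5.53, 5.79, 5.64 and 5.78 in subfertile cows. All subfertile cows but cow 1 were at or above the fertile median, and the difference was -0.05 ± 0.22 (limma, adjusted p = 0.891, 95% interval -0.54 to 0.44). Subfertile cow 1 was also the cow with the highest mean over 5 smooth muscle markers, 5.61, where the other 4 subfertile cows were at 3.04 to 3.67 and the fertile cows at 2.14 to 4.21. Subfertile cow 1 also had the highest epithelial mean, 2.49, and the lowest stromal mean, 3.77, of all 11 cows. Its endothelial mean of -1.76 was the lowest of the subfertile cows. Fertile cow 4, with the highest fertile smooth muscle mean, 4.21, had the highest fertile PLAT value, 5.76. The part of any of these in the PLAT values was not tested.

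**Figure D4:**
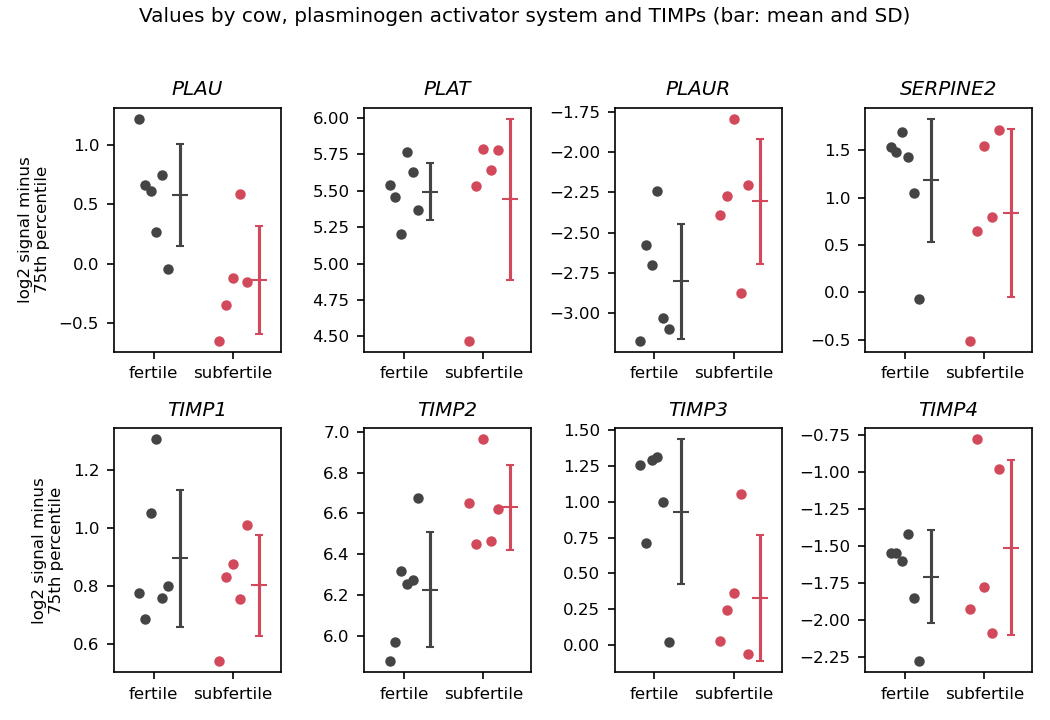
Values of each cow (log2 signal minus the 75th percentile of the array) for PLAU, PLAT, PLAUR, SERPINE2 and TIMP1 to TIMP4, brightest probe, with 1 point a cow and bars at the mean with the SD of 6 fertile and 5 subfertile cows. The groups overlap for all 8 genes, and PLAT in subfertile cow 1 and SERPINE2 in fertile cow 6 lie far below the rest of their groups.

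Among the inhibitors, 11 of 12 probes were tested and 1 passed, a dimmer TIMP2 probe that was higher in subfertile cows. Of the protease probes, 49 of 80 were tested, and 8 were higher and 3 lower, 22.4% against 22.2% of all probes. With 12 inhibitor probes, the contrast between the classes was not tested. No inhibitor gene passed on its brightest probe. TIMP2, which inhibits MMP2 and also joins MMP14 in activating it, ranged from 5.88 through 6.26 to 6.67 in fertile cows and was at 6.65, 6.45, 6.96, 6.47 and 6.62 in subfertile cows on that probe. Fertile cow 6 was higher than all but subfertile cow 3, and the other 5 fertile cows were below every subfertile cow. The difference was 0.40 ± 0.15 (limma, adjusted p = 0.0790), and 0.49 without fertile cow 6 (adjusted p = 0.0262). With quantile normalization it was -0.29 (adjusted p = 0.108).

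The dimmer TIMP2 probe was higher by 0.73 ± 0.16, or 1.66-fold (limma, adjusted p = 0.0096). Fertile cows were at 5.46, 5.71, 5.79, 6.04, 5.98 and 6.41, and subfertile cows at 6.68, 6.45, 6.92, 6.50 and 6.59. The groups did not overlap, although fertile cow 6 was just below the lowest subfertile cow. No inhibitor probe passed as higher with quantile normalization. It shares 12 bases with the brightest probe, and the third TIMP2 probe, whose sequence is printed above, differed by 0.41 ± 0.16 (adjusted p = 0.0908).

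TIMP3, the TIMP that binds to the matrix and also inhibits ADAMTS enzymes, had negative differences on its 3 probes, -0.61, -0.36 and -0.25. On the brightest, fertile cows ranged from 0.02 through 1.13 to 1.31 and subfertile cows were at 0.03, 0.25, 0.36, 1.06 and -0.06. The low fertile value was that of cow 6 and the high subfertile value that of cow 4. The difference was -0.61 ± 0.26 (limma, adjusted p = 0.120), and it passed without fertile cow 6 (-0.79, adjusted p = 0.0247), without subfertile cow 4 (-0.79, adjusted p = 0.0447) and with normexp correction (0.0370).

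TIMP1, a soluble inhibitor of most MMPs, ranged from 0.69 through 0.79 to 1.31 in fertile cows and was at 0.54, 0.83, 0.88, 0.76 and 1.01 in subfertile cows. Subfertile cow 1 was the lowest and fertile cows 3 and 4 the highest, with a difference of -0.09 ± 0.13 (limma, adjusted p = 0.649, 95% interval -0.38 to 0.20). TIMP4 ranged from -2.28 through -1.58 to -1.42 in fertile cows and was at -1.92, -0.78, -1.78, -2.09 and -0.98 in subfertile cows. Subfertile cows 2 and 5 were above all others, and the difference was 0.20 ± 0.25 (limma, adjusted p = 0.607).

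SERPINE2 ranged from -0.07 through 1.45 to 1.69 in fertile cows and was at -0.51, 0.65, 1.54, 0.80 and 1.71 in subfertile cows. Fertile cow 6 and subfertile cow 1 were the low values, and the difference was -0.34 ± 0.41 (limma, adjusted p = 0.578, 95% interval -1.24 to 0.55).

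Probes of the same gene gave a check on these values. Of the 18 genes with at least 2 tested probes, 12 had differences of 1 sign and 6 of both signs, and no gene had probes that passed in opposite directions. MMP2, MMP11, MMP19, ADAMTS10, PLAUR, TIMP2 and TIMP3 were among the 12, and MMP25 and MMP23B among the 6. MMP16 was also among the 12, but its 2 tested probes share 54 bases, so their common sign is no check. The other 16 tested genes, with ADAMTS6, ADAMTS14, ADAMTS15, MMP17, PLAU, PLAT and SERPINE2 among them, rest on 1 tested probe. The median SD within a group over tested member probes was 0.35 in fertile and 0.39 in subfertile cows, against 0.28 and 0.25 over all tested probes.

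**Figure D5:**
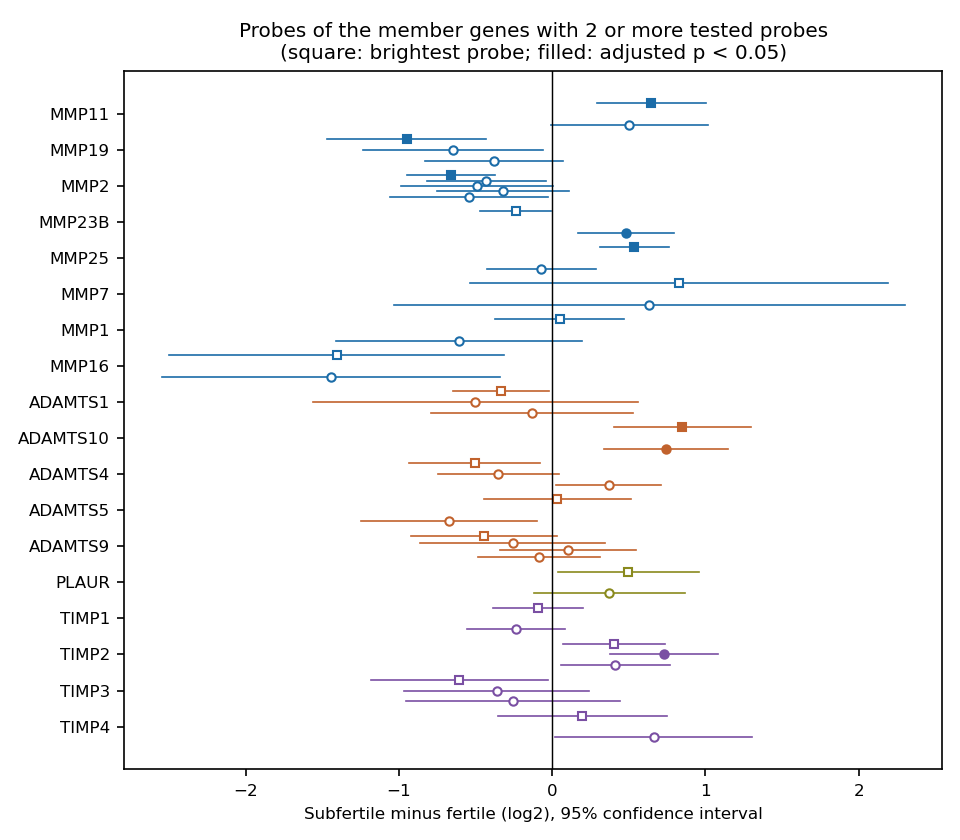
Difference between subfertile and fertile cows (log2, subfertile minus fertile) with its 95% confidence interval for each tested probe of the 18 genes with at least 2 tested probes, squares for the brightest probe and filled marks for an adjusted p below 0.05. The 5 MMP2 probes all lie left of 0 and the 3 TIMP2 probes right of it, while the MMP25 and MMP23B probes lie on both sides.

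Of 42 other genes of pericellular proteolysis, 32 were tested on their brightest probe, and 1 passed as higher and 6 as lower. That was 21.9% in all against 22.1% of all names, of which 14.2% were higher and 7.89% lower. Most calls in this list were thus lower where most over all names were higher, and this contrast was not tested. The median difference of the list was -0.22. The plasmin inhibitor SERPINF2 (alpha 2 antiplasmin) differed by 1.48 ± 0.22 (limma, adjusted p = 0.0016), but it was measured in 2 of 6 fertile and 3 of 5 subfertile cows, so this value rests largely on signals at background. PCOLCE2, which enhances procollagen C-proteinase, fell by 1.71 ± 0.34 (limma, adjusted p = 0.0058): fertile cows ranged from 0.97 to 1.91 and subfertile cows from -0.98 to 0.81. PCSK5, a proprotein convertase of the furin family, fell by 0.79 ± 0.18 (limma, adjusted p = 0.0106). ADAM17, the sheddase of TNF, fell by 0.31 ± 0.08 (limma, adjusted p = 0.0198) on the brightest of 4 tested probes, and another of its probes passed as higher. Plasminogen itself, PLG, was measured on no array.

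Markers of cell types were read beside these results, where 14.2% of all names passed as higher and 7.89% as lower. Of 10 epithelial markers 6 were higher in subfertile cows, and the mean over the 9 that had a value on every array was 1.17 to 1.99 in fertile and 1.91 to 2.49 in subfertile cows. Of 9 stromal markers 2 were higher, with means over the 6 that had a value on every array of 3.98 to 4.22 and 3.77 to 4.38. The median difference of the 9 was -0.06, against 0.68 for the epithelial markers. COL3A1, 1 of the 2 stromal markers that were higher, also had 2 probes that passed as lower. Of 8 macrophage markers 1 was lower, with means of -2.97 to -1.57 and -2.63 to -1.85, the lowest being fertile cow 6. Of 6 tested endothelial markers 2 were higher, while VWF was measured on no array. Of 5 smooth muscle markers none passed. Of 4 tested neutrophil markers ELANE was higher, and of 7 T and NK cell markers PRF1 was higher. The epithelial marker EPCAM and the stromal marker DCN were measured on all arrays. The part of the epithelial shift in the MMP and ADAMTS differences was not tested.

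Single cows recurred among the extremes. Over the 34 tested genes, fertile cow 6 was the lowest of its group for 14 and fertile cow 4 the highest for 11, while subfertile cow 3 was the highest of its group for 12 and subfertile cow 4 the lowest for 10. Without fertile cow 6, 7 protease probes were lower in place of 3, and 3 inhibitor probes were higher in place of 1. Without subfertile cow 3, 8 protease probes were lower. These ranks and counts are given without the same over all tested probes, so they show nothing particular to the members.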

How the data were processed

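Endometrium of 11 cows was profiled on 1 array each. Per the labels' protocols the authors labelled total RNA with Cy3, and per the submitters' processing notes intensities were extracted with Agilent Feature Extraction 10.5.1.1. Each of the scanner files deposited has 45220 spots, with background-subtracted processed intensity, raw mean and background intensity and spot flags. The deposited value table holds log2 values of the same arrays. Each array's difference from fertile cow 2 was compared probe by probe between that table and the values used here, less the array's median. These differences matched to within 0.01 for all probes on every other array but fertile cow 1, where 17.0% did. Offsets common to a probe or to an array drop out of this comparison, so it does not check the scale of the table. Column medians of the value table were -0.081 to 0.092, and it was used as an alternative.

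Log2 processed signals were set to the 75th percentile of each array, control and outlier spots were left out, spots of a probe were averaged, and probes well above background on at least 5 of 11 arrays were kept. The test was lmFit and eBayes of limma 3.58.1 (R 4.3.3) with group as the only term, adjusted over 31877 probes. The number of arrays limits the precision. On simulated data, with 100 of 31877 probes changed at each fold, 56.0% of 2-fold and 89.0% of 4-fold changes were recovered. There were 8 false calls among 153, without slide or day effects. In the real data 7067 probes passed, so the adjusted threshold is not the same and these shares do not give its power. Slide and day were entered as random blocks by duplicateCorrelation (consensus 0.447 and 0.315), with a slide and day of its own for fertile cow 6. Other alternatives were normexp correction (offset 50), quantile normalization, median centring, the value table, other filters, a block for the replicate number and each cow left out. Coordinates and probe sequences are those of the array files, on Btau_3.1.

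The members and gene lists were chosen with earlier results of these data known. Values of each cow are given for genes that passed on their brightest probe, for the plasminogen activator system, the TIMPs, MMP2, MMP9, MMP14 and ADAMTS1, and values of the other list for up to 3 genes with the smallest p in each direction among those that passed. Marker means use markers with a value on all arrays.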

Additional observations from a re-analysis of the deposited data

Results flagged for a closer look

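In subfertile cow 1 PLAT was at 4.47, apart from its group, where the next value was 5.53 and the highest 5.79. In fertile cow 6 SERPINE2 was at -0.066, where the next fertile value was 1.04 and the highest 1.69. These were 2 of 40 groups examined for a sample far from the others, and chance flags about 1 in 20.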

How the results depend on the processing

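Of the 9 genes that passed, ADAMTS6 changed sign under 1 setting, at 0.034 with normexp correction. With normexp, under which the median difference of all probes was 0.33 in place of 0.07, 17082 probes passed in place of 7067, with 25 protease probes higher and 6 lower, and 2 inhibitor probes higher and 1 lower. With no filter on dim probes these were 12179 in all, 21 protease and 2 inhibitor probes higher. With quantile normalization 6 protease probes were lower and 0 inhibitor probes higher, and with median centring 7 protease probes were lower. The median difference of all probes was -0.015 and -0.025 under these settings. The counts over all probes are not given beside these, so the changes show nothing particular to the members. With slide as a block 3672 probes passed, with 3 protease probes higher and 1 lower, and with day 977, with 1 higher and 0 lower and 0 inhibitor probes higher. Replicate numbers did not pair the cows (correlations of same-numbered cows -0.208 to 0.217). With the replicate block 5 protease probes were higher and 7 lower, and 2 inhibitor probes higher and 1 lower, over 4762 calls in all, with ADAMTS10 at an adjusted p of 0.0732. Leaving out each cow gave 4527 (without subfertile cow 2) to 7298 calls, 6 to 9 protease probes higher and 2 to 8 lower, and 1 to 3 inhibitor probes higher and 0 to 1 lower. The value table and the filter on all arrays gave counts near those reported, although ADAMTS6 and ADAMTS14 were not tested under that filter. Dim probes have the least support, since subfertile arrays measured fewer of them.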
